A study of Mus musculus with 16 samples.

Results

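Glycolytic enzymes were followed in dermal fibroblasts of the mouse, which build the collagen matrix of the skin, by taking the genes *Hk1*, *Hk2*, *Gpi1*, *Pfkl*, *Pfkp*, *Aldoa*, *Tpi1*, *Gapdh*, *Pgk1* and *Eno1* by their symbol in the array's annotation. The brightest probe set on average stood for each gene. Of these 10 genes, 8 had a probe set listed under that symbol alone, out of 17097 genes with such a probe set on the array. *Gpi1* and *Eno1* had no such set and were not analysed here. Probe sets listed under several symbols were not searched for them. All samples came from female C57Bl/6 mice, an inbred laboratory strain, and each of 4 old mice (18 months) and 4 young mice (2 months) gave cells for culture and cells profiled straight after isolation, which the labels call in vivo. The 16 arrays therefore formed 4 groups of 4: old cultured, young cultured, old in vivo and young in vivo. RNA from 5000 cells per sample was amplified over 23 cycles before hybridisation to an Affymetrix mouse array. The time in culture, the medium, the passage and the way of isolating the cells are not stated in the labels.

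Glycolysis breaks glucose down to pyruvate in the cytosol and yields ATP without oxygen. Hexokinases trap glucose as glucose 6-phosphate, phosphofructokinase commits the sugar to the pathway, aldolase and triosephosphate isomerase turn it into triose phosphates, and the enzymes of the payoff phase, among them glyceraldehyde-3-phosphate dehydrogenase and phosphoglycerate kinase, recover energy as NADH and ATP. Several steps are served by isozymes from separate genes. Many of these genes are known targets of the hypoxia-inducible factor HIF and of Myc, and cells that proliferate in culture commonly run glycolysis to lactate even with oxygen present.

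The deposited values are RMA expression values, taken here as log2 (array medians 4.74 to 4.92), so that a change of 1 is a doubling. The most intense probe set on each array read 12.81 to 13.08, and 95% of the array's poly-A control values lay below 4.27. Every value of the 8 measured enzyme genes, from 5.53 for *Hk2* in an old in vivo sample to 12.53 for *Gapdh* in a young cultured sample, lay above that level. In vivo arrays spread more than cultured ones (median residual SD per gene 0.185 against 0.129). The list of fibroblast markers had a mean log2 level per array of 9.13 to 9.36 in old cultured, 9.10 to 9.47 in young cultured, 10.70 to 10.90 in old in vivo and 10.85 to 10.90 in young in vivo samples. Its members *Col1a1* and *Dcn* had group means of 10.85 or more, whereas *Pdgfra* was dim, at 4.63 to 5.05. Its member *Lum* averaged 6.83 in old cultured and 7.23 in young cultured cells, against 11.65 in old in vivo and 11.68 in young in vivo cells. Lists of keratinocyte, endothelial, pericyte, macrophage, T cell, muscle, erythroid, melanocyte and fat cell markers had means of 3.96 to 5.74, apart from 1 old in vivo array on which the keratinocyte list reached 6.14. In each cultured group, the 2 arrays with the lower serial numbers in their titles (replicates 1 and 2) stood apart from the 2 with the higher numbers (replicates 3 and 4) along the first component of the within-group variation, which held 45.6% of it. What these numbers mean is not given in the labels, and results are also given within each pair where this matters.

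Cultured fibroblasts had more transcript than in vivo fibroblasts for 6 of the 8 measured enzyme genes, *Pgk1*, *Pfkl*, *Tpi1*, *Hk2*, *Aldoa* and *Gapdh*, in log2 terms by 0.47 to 2.09 over both ages (limma over all genes, Benjamini-Hochberg adjusted p at most 2.97e-06), and none of the 8 was called lower. *Pgk1* and *Pfkl* were more than 4-fold higher (4.24-fold and 4.18-fold). *Hk1* and *Pfkp*, the other isozymes of the hexokinase and phosphofructokinase steps, did not pass the test on the deposited scale. Culture changed much of the transcriptome: 79.5% of the 14819 genes tested passed in either direction, 34.8% as higher and 44.7% as lower, so a call by itself says little about any gene here. For 4 of the 8 enzyme genes the rise was at least 2-fold, against 13.3% of all genes, and the median change of the 8 was 1.03 against -0.11 for all genes tested. The all-gene median depended on the filter: it was 0.085 with a stricter one (at least 8 arrays above 4.81). In 6 of the 8, the 8 cultured and 8 in vivo arrays did not overlap, as in 45.1% of all genes. In a bulk sample, a shift in the mix of cells and a shift in the RNA per cell cannot be told apart.

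**Figure D1:**
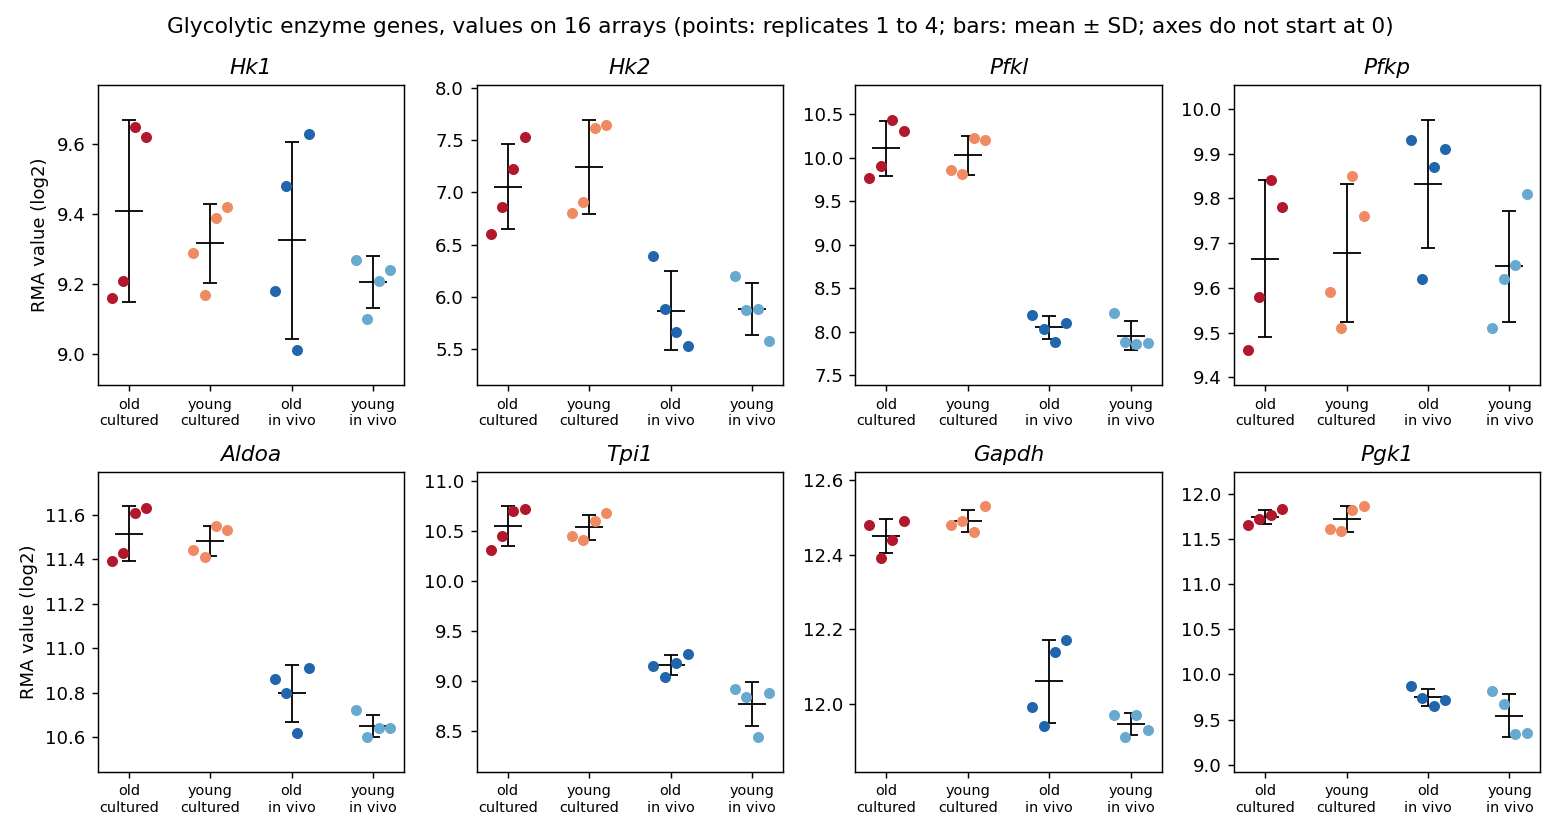
The log2 RMA value of each measured glycolytic enzyme gene on all 16 arrays (points, replicates 1 to 4 from left to right within a group), with the mean and SD of each group of 4 as bars. The cultured groups lie above both in vivo groups without overlap for 6 genes, while *Hk1* and *Pfkp* overlap across all 4 groups on this scale, where rescaling turns the *Hk1* difference and makes the *Pfkp* difference negative in both ages. The axes do not start at 0.

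On the probe sets used, the hexokinase step was divided between its isozymes. *Hk2* (chromosome 6) encodes the inducible hexokinase best known from muscle and from fast-growing cells. Its values were 6.60, 6.86, 7.22 and 7.53 in old cultured cells, 6.80, 6.91, 7.62 and 7.65 in young cultured cells, 6.39, 5.88, 5.66 and 5.53 in old in vivo cells, and 6.20, 5.87, 5.88 and 5.58 in young in vivo cells. The lowest cultured array lay above the highest in vivo array, and the widest scatter within a group was that of the young cultured arrays (SD 0.45, n = 4). The change with culture was 1.28 ± 0.17 (SE; 2.42-fold, limma adjusted p = 2.97e-06). It was 0.71 (adjusted p = 0.0023) with only replicates 1 and 2 of each group and 1.84 (adjusted p = 8.21e-07) with only replicates 3 and 4, so the size of the *Hk2* difference depended on the pair.

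*Hk1* (chromosome 10), the hexokinase found in nearly every tissue, read 9.16, 9.21, 9.65 and 9.62 in old cultured, 9.29, 9.17, 9.39 and 9.42 in young cultured, 9.18, 9.48, 9.01 and 9.63 in old in vivo, and 9.27, 9.10, 9.21 and 9.24 in young in vivo cells. All 4 groups overlapped. The difference between cultured and in vivo cells was 0.10 ± 0.10 (SE, 95% confidence interval -0.11 to 0.30, limma adjusted p = 0.35), and its sign turned when arrays were scaled to their 75th percentile (-0.10) or by cyclic loess (-0.21). A second, dimmer *Hk1* probe set gave a rise of 0.59 ± 0.09, so the gene's probe sets differ on whether it passed.

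Phosphofructokinase showed the same kind of division. *Pfkl* (chromosome 10), the liver-type subunit, had values of 9.77, 9.91, 10.44 and 10.31 in old cultured and 9.86, 9.81, 10.23 and 10.21 in young cultured cells, against 8.19, 8.03, 7.88 and 8.10 in old in vivo and 8.21, 7.88, 7.86 and 7.87 in young in vivo cells. The gap between the lowest cultured and the highest in vivo array was wider than the spread of any group. The change was 2.07 ± 0.10 (SE, limma adjusted p = 1.26e-11), and it exceeded that of 96.9% of the genes tested. A second *Pfkl* probe set rose by 2.28 ± 0.12, while the remaining one, whose group means were 5.57 to 6.35, fell by 0.76 ± 0.08.

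*Pfkp* (chromosome 13), the platelet-type subunit, read 9.46, 9.58, 9.84 and 9.78 in old cultured, 9.59, 9.51, 9.85 and 9.76 in young cultured, 9.93, 9.62, 9.87 and 9.91 in old in vivo, and 9.51, 9.62, 9.65 and 9.81 in young in vivo cells. The groups overlapped throughout. Its difference was -0.07 ± 0.08 on the deposited scale (SE, 95% confidence interval -0.23 to 0.09, limma adjusted p = 0.41), but *Pfkp* was lower in culture after 75th-percentile scaling (-0.27, adjusted p = 0.011) and after cyclic loess (-0.38, adjusted p = 0.0010), and its second probe set fell by 0.73 ± 0.07. No setting tried gave a *Pfkp* rise that passed the test. Within each array, the log2 ratio of the *Pfkp* to the *Pfkl* probe set, whose zero is arbitrary, was -0.60 to -0.31 in old cultured and -0.45 to -0.27 in young cultured samples, against 1.59 to 1.99 in old in vivo and 1.30 to 1.94 in young in vivo samples. For *Hk2* over *Hk1* it was -2.56 to -2.09 in old cultured and -2.49 to -1.77 in young cultured samples, against -4.10 to -2.79 in old in vivo and -3.66 to -3.07 in young in vivo samples. Neither ratio overlapped between cultured and in vivo arrays. The ratios restate the values above and hold for the probe sets used, and no share for other gene pairs was computed. With other sets the picture depends on the set chosen. The second *Pfkl* set changed by 2.28 ± 0.12, the dimmest *Pfkl* set by -0.76 ± 0.08 and the second *Pfkp* set by -0.73 ± 0.07. The second *Hk1* set rose by 0.59 ± 0.09, and *Hk2* had 1 set only.

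**Figure D2:**
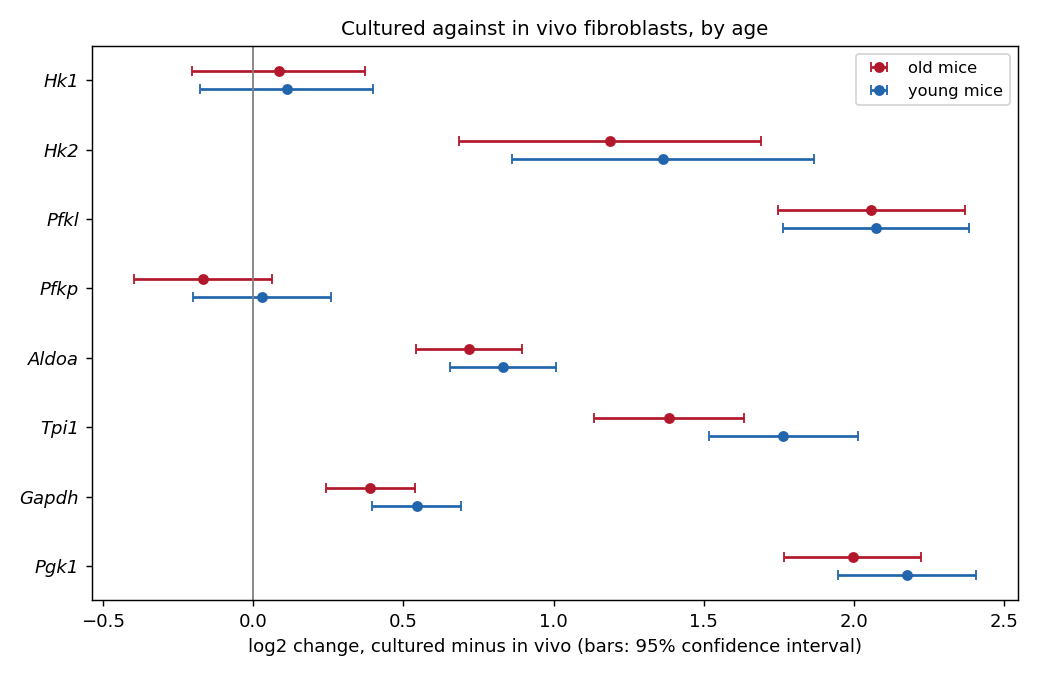
The log2 change of each measured glycolytic enzyme gene, cultured minus in vivo, in old mice (upper point of each pair) and young mice (lower point), with 95% confidence intervals from the limma fit over 16 arrays. The intervals of 6 genes lie above 0 in both ages, and those of *Hk1* and *Pfkp* span 0 on the deposited scale, whereas rescaling turns the sign of the *Hk1* changes and the young *Pfkp* change.

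Promoter sequences are shown for the isozyme pairs, and for *Pgk1* and *Tpi1*, because these genes differed in their change with culture and the family is a classical target of HIF. Each window runs from 250 bases before to 50 bases after an annotated transcription start, as given by RefSeq for build GRCm38.p6, and is printed 5′ to 3′ on the gene's strand. Capitals mark the core of the HIF binding motif, ACGTG or GCGTG, searched on both strands. ACGTG is also contained in the E-box CACGTG that Myc binds, which occurred in 7.15% of all windows and in none of those of the 10 enzyme genes.
Hk2 (chr6:82774405-82774704, minus strand): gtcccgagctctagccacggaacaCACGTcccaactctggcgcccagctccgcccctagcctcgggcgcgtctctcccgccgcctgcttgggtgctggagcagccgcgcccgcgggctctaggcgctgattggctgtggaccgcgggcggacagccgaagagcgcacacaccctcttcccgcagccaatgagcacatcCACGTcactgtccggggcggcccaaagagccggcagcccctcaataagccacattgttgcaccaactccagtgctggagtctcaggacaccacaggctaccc
Hk1 first start (chr10:62379859-62380158, minus strand): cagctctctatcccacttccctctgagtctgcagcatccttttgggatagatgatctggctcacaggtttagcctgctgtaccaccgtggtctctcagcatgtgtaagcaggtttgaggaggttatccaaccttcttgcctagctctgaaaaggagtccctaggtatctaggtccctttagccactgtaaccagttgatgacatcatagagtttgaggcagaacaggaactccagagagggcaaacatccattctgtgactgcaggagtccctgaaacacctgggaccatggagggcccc
Hk1 second start (chr10:62340372-62340671, minus strand): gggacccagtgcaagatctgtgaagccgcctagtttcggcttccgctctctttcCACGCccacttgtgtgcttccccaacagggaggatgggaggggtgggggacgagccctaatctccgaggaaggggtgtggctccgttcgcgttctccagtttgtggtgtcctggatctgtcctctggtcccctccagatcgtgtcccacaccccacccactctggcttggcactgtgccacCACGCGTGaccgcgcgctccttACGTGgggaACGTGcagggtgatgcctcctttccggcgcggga
Pfkl (chr10:78009758-78010057, minus strand): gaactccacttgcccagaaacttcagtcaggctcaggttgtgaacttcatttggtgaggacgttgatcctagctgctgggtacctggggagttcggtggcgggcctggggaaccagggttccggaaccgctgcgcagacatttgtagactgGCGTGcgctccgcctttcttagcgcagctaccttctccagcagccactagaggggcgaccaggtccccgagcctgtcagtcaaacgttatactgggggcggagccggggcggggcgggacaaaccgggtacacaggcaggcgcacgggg
Pfkp (chr13:6648722-6649021, minus strand): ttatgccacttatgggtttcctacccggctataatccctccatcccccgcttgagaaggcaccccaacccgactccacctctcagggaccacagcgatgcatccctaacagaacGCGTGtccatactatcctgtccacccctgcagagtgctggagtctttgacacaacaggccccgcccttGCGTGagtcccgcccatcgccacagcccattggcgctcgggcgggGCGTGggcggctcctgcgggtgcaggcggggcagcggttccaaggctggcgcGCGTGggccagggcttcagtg
Pgk1 (chrX:106186850-106187149, plus strand): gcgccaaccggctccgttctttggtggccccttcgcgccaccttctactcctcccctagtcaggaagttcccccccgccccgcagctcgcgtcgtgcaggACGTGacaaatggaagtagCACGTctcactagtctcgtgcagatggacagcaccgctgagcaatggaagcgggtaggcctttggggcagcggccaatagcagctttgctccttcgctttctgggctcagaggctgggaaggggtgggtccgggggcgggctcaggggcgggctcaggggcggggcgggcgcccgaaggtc
Tpi1 (chr6:124814109-124814408, minus strand): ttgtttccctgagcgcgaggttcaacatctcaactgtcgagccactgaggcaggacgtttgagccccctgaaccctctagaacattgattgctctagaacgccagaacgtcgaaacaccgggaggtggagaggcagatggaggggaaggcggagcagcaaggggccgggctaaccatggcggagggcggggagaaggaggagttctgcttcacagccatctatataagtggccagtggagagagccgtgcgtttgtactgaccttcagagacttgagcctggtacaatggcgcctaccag

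The HIF core was found in 11 of the 15 windows of the enzyme genes, against 43.8% of all 32851 promoter windows. Windows 2 and 3 of *Eno1* overlap, as do windows 2 and 3 of *Aldoa*, so shared matches count in both windows. By gene, the core was found in 8 of the 10, including the unmeasured *Eno1*. Genes with several windows have more chances of a match, and the gene count has no share of all genes beside it. The number of HIF core matches was not tested against the change in culture. *Pfkp*, which did not pass the test on the deposited scale, had 4 matches and *Pfkl*, which rose, had 1. *Hk2* and *Pgk1* had 2 each, the second start of *Hk1* had 5 and its first start had 0. *Gapdh* rose with 3 matches, *Aldoa* rose with 0, 1 and 1 in its windows, and *Tpi1* rose with 0 matches in its window. A GC box (GGGCGG, both strands) was in 10 of the 15 windows, the overlapping ones included, against 35.7% of all windows. A match is a string of letters and was not tested as a binding site.

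The genes of aldolase and triosephosphate isomerase both rose. *Aldoa* (chromosome 7), the aldolase of muscle and most other tissues, had values of 11.39, 11.43, 11.61 and 11.63 in old cultured and 11.44, 11.41, 11.55 and 11.53 in young cultured cells, against 10.86, 10.80, 10.62 and 10.91 in old in vivo and 10.72, 10.60, 10.64 and 10.64 in young in vivo cells. It was higher on all cultured arrays, by 0.78 ± 0.06 (SE; 1.71-fold, limma adjusted p = 2.71e-09). All 4 of its probe sets rose, by 0.52 to 0.78.

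*Tpi1* (chromosome 6) encodes triosephosphate isomerase, which interconverts the triose phosphates made by aldolase. Its values were 10.31, 10.45, 10.70 and 10.72 in old cultured, 10.45, 10.41, 10.60 and 10.68 in young cultured, 9.15, 9.04, 9.18 and 9.27 in old in vivo, and 8.92, 8.84, 8.44 and 8.88 in young in vivo cells. All cultured arrays lay above all in vivo arrays. The change was 1.58 ± 0.08 (SE; 2.98-fold, limma adjusted p = 2.43e-11), and the second *Tpi1* probe set gave 2.11 ± 0.10. The probe sets of *Aldoa* and the one used for *Tpi1* carry the array maker's mark for probes that may also match other sequences, so a contribution of related sequences, such as pseudogenes, cannot be told apart here.

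In the payoff phase, *Gapdh* (chromosome 6), the NADH-producing dehydrogenase often used as a loading control, changed less than *Pgk1*. *Gapdh* read 12.48, 12.39, 12.44 and 12.49 in old cultured and 12.48, 12.49, 12.46 and 12.53 in young cultured cells, against 11.99, 11.94, 12.14 and 12.17 in old in vivo and 11.97, 11.91, 11.97 and 11.93 in young in vivo cells. The groups did not overlap, and the rise was 0.47 ± 0.05 (SE; 1.38-fold, limma adjusted p = 2.08e-07). The cultured values lie within 1 log2 unit of the array maxima, which were 12.81 to 13.08. The array's control probe sets for the 3′ end, the 5′ end and the middle of *Gapdh* rose by 0.34, 0.35 and 0.84.

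*Pgk1* (chromosome X) encodes phosphoglycerate kinase, the first ATP-forming enzyme of the pathway. It had values of 11.65, 11.72, 11.76 and 11.83 in old cultured and 11.61, 11.59, 11.82 and 11.86 in young cultured cells, against 9.87, 9.74, 9.65 and 9.72 in old in vivo and 9.82, 9.67, 9.34 and 9.35 in young in vivo cells. The distance between cultured and in vivo arrays was several times the spread within any group. The change, 2.09 ± 0.08 (SE, limma adjusted p = 2.35e-13), was above that of 97.05% of all genes tested, and the second *Pgk1* probe set rose by 2.03 ± 0.09. The measure for *Eno1b*, a near-identical enolase copy whose probes may also read *Eno1*, rose by 1.88 ± 0.07 and is not counted as *Eno1*.

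**Figure D3:**
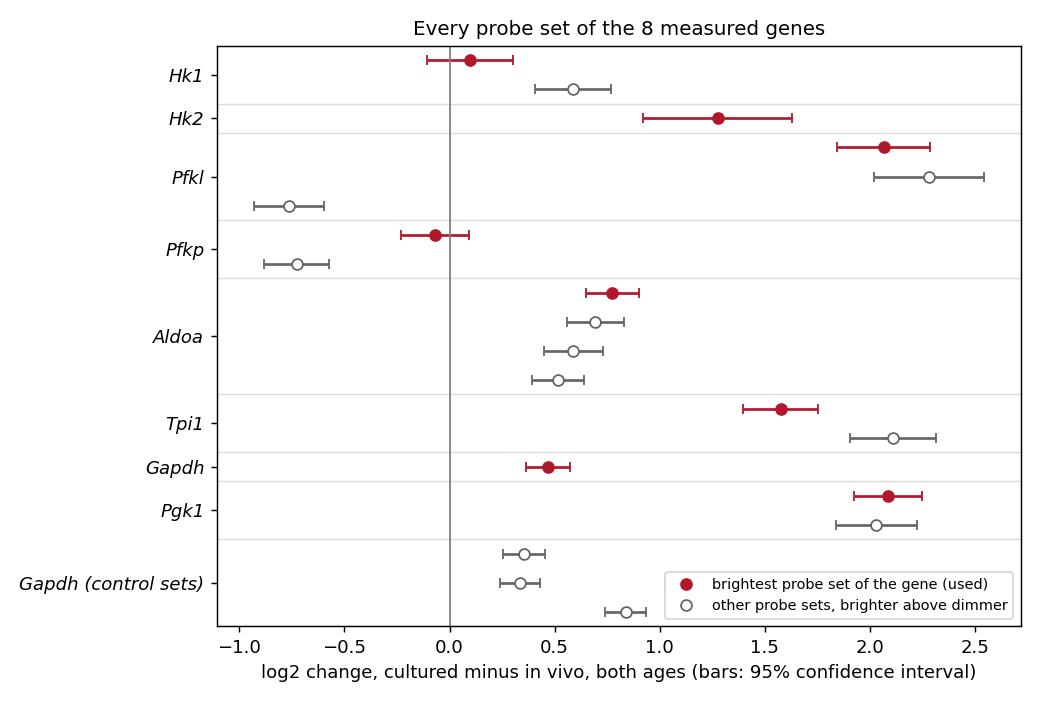
The log2 change with culture over both ages for every probe set of the 8 genes and for the *Gapdh* control sets, with 95% confidence intervals (red, the brightest set of a gene, used in the text; open, other sets from brighter to dimmer). On the deposited scale, *Pfkl* is the gene with sets on both sides of 0 (2.07, 2.28 and -0.76), and the 2 sets of *Hk1* (0.10 and 0.59) and of *Pfkp* (-0.07 and -0.73) share a sign but differ in size.

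Each age gave the same calls by itself. In old mice 6 of the 8 genes were higher in cultured than in vivo cells (62.8% of all genes passed, 30.2% as higher), and in young mice 6 of 8 (71.2% of all genes passed, 32.6% as higher), and these were the same 6 genes. In old mice *Pgk1* differed by 2.00 ± 0.11, *Pfkl* by 2.06 ± 0.15, *Tpi1* by 1.39 ± 0.12, *Hk2* by 1.19 ± 0.24, *Aldoa* by 0.72 ± 0.08 and *Gapdh* by 0.39 ± 0.07 (SE, limma adjusted p at most 0.00037). In young mice the same differences were 2.18 ± 0.11 for *Pgk1*, 2.07 ± 0.15 for *Pfkl*, 1.77 ± 0.12 for *Tpi1*, 1.36 ± 0.24 for *Hk2*, 0.83 ± 0.08 for *Aldoa* and 0.55 ± 0.07 for *Gapdh* (SE, limma adjusted p at most 8.79e-05).

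Other features of the samples moved with culture as well. All 9 fibroblast markers were lower in cultured cells (8 after cyclic loess), in mean level as given above. Markers of other cell types were mostly lower too, 5 of 6 tested for macrophages, 5 of 7 for endothelium, 5 of 8 for keratinocytes, 5 of 5 for melanocytes, 4 of 4 for T cells and 5 of 6 for skeletal muscle, with none of these higher (cyclic loess gave 1 higher and 3 lower for endothelium, 3 lower for keratinocytes and 1 lower for T cells). Across all genes tested, 44.7% were lower. Several of these markers were dim even in vivo, below the poly-A control level of 4.27 given above. *Cd3e* of T cells averaged 4.14 in old and 4.13 in young in vivo cells, and *Tyr* of melanocytes 4.06 and 4.12. The median change of the T cell list was -0.18, so these counts do not show that such cells were present in vivo. Of single markers, chosen here after their values were seen, *Cd68* of macrophages averaged 5.52 in old cultured and 5.50 in young cultured cells, against 8.10 in old in vivo and 8.09 in young in vivo cells, and *Kcnj8* of pericytes averaged 4.17 and 4.19 in old and young cultured cells, against 8.23 and 7.17 in old and young in vivo cells. Falls of this size were not shared by *Csf1r* or *Rgs5* of the same lists. *Csf1r* of macrophages averaged 6.505 and 6.63 in old and young cultured cells, against 6.455 and 7.53 in old and young in vivo cells. *Rgs5* of pericytes averaged 4.585 and 4.52 in old and young cultured cells, against 4.56 and 4.805 in old and young in vivo cells. *Myh11* of smooth muscle was higher in culture, at 8.41 in old cultured and 9.25 in young cultured cells, against 4.46 in old in vivo and 4.49 in young in vivo cells. The part of these other cell types in the glycolytic values was not tested. The 3′ minus 5′ difference of the beta-actin control probe sets, a guide to RNA length, was 0.10 ± 0.07 in old cultured, 0.07 ± 0.04 in young cultured, -0.46 ± 0.11 in old in vivo and -0.41 ± 0.07 in young in vivo samples (SD, n = 4 each). For *Gapdh* that difference was -0.15 in old cultured, -0.11 in young cultured, -0.15 in old in vivo and -0.08 in young in vivo samples, and its 3′ and 5′ control sets rose by similar amounts. The part of RNA length or cell make-up in the other enzyme genes' changes was not tested. In 7 of the 8 genes, all except *Gapdh*, cultured replicates 3 and 4 lay above replicates 1 and 2 without overlap in both ages, as in 9.51% of all genes tested (in a further 10.5% they lay below). The gap was widest for *Hk2*, 0.65 in old and 0.78 in young cultured cells. With replicates 3 and 4 of each group or with replicates 1 and 2 alone, 6 of 8 genes were still higher in culture, against 31.3% and 32.8% of all genes.

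On the probe sets used, old and young cells differed little in these genes. Among in vivo samples 0 of the 8 passed the test between old and young mice (limma on the 8 in vivo arrays), against 1.35% of all genes, and 1 of 8 had an unadjusted p under 0.05, against 15% of all genes. That gene was *Tpi1*, at 9.16 ± 0.10 in old and 8.77 ± 0.22 in young in vivo cells (SD, n = 4 each). Its groups did not overlap, as in 8.53% of all genes. The difference was 0.39 ± 0.12 (SE, 95% confidence interval 0.12 to 0.66, limma adjusted p = 0.16). The second *Tpi1* probe set gave 0.17 ± 0.13. On the probe sets used, the other genes differed by -0.02 (*Hk2*) to 0.20 (*Pgk1*), with confidence intervals that span 0. The second *Hk1* set gave 0.385 ± 0.11 (SE, 95% confidence interval 0.13 to 0.64), and the second *Pfkl* set gave 0.39 ± 0.19 (-0.02 to 0.80). The second *Pfkp* set gave -0.17 ± 0.12 and the dimmest *Pfkl* set -0.04 ± 0.12. None of these sets passed after adjustment. On the sets used, 7 of 8 genes were positive on the deposited scale, against 53% of all genes on that scale. The 8 values share arrays.

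Among cultured samples, 0 of the 8 genes and 0 of all 14819 genes (0%) passed between old and young mice, while 533 genes (3.6%) and none of the 8 had an unadjusted limma p under 0.05. The differences ran from -0.19 ± 0.25 for *Hk2* (SE, 95% confidence interval -0.76 to 0.37) to 0.09 ± 0.13 for *Hk1* (-0.19 to 0.37). *Gapdh* had the narrowest interval, -0.17 to 0.09, and *Tpi1* differed by 0.01 ± 0.11 (-0.23 to 0.25). A missed threshold does not show that the ages are alike.

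**Figure D4:**
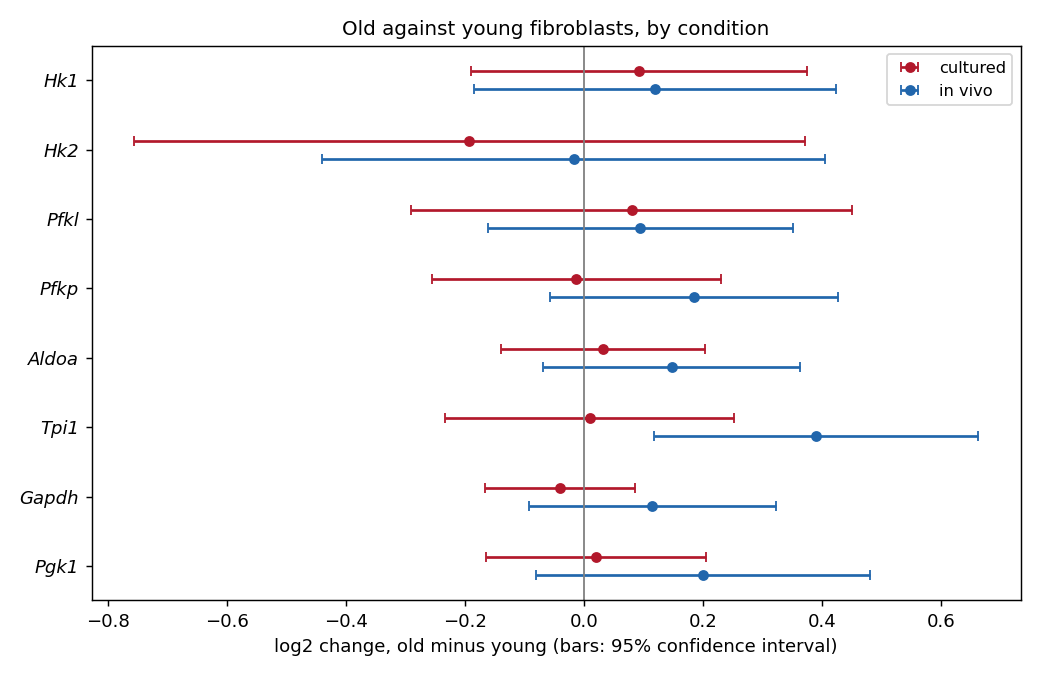
The log2 difference of each measured glycolytic enzyme gene, old minus young, in cultured cells (upper point of each pair) and in vivo cells (lower point), with 95% confidence intervals from limma fits on the 8 arrays of each condition. Every interval spans 0 except that of *Tpi1* in vivo, 0.12 to 0.66, which did not pass after adjustment over all genes.

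Whether the age difference itself depended on culture was tested as the age difference in cultured cells minus that in in vivo cells. In this test 0 of 8 genes passed, against 0.587% of all genes. All 8 estimates were negative on the deposited scale (those of *Hk1* and *Pfkl* turned positive after either rescaling), from -0.38 ± 0.17 for *Tpi1* (SE, limma adjusted p = 0.36) to -0.02 ± 0.21 for *Pfkl*, and 47.1% of all genes had a positive estimate. The 8 estimates share arrays and are not independent of each other. *Tpi1* was the 1 gene of the 8 with an unadjusted p under 0.05, against 12.3% of all genes.

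The rest of glucose metabolism moved in both directions in culture, as did all genes tested (34.8% higher and 44.7% lower). These shares stand beside every list count below, and a split near them says little about a list. Of 13 other glycolytic genes tested, 5 were higher, 4 lower and 4 did not pass, with a median change of -0.01 (3 higher and 7 lower after 75th-percentile scaling, 6 higher and 3 lower after cyclic loess). *Bpgm*, which makes the bisphosphoglycerate known from red cells, rose by 3.0 ± 0.16, and the muscle enolase gene *Eno3* rose by 1.94 ± 0.13. *Hk3*, another hexokinase, fell by 0.77 ± 0.06. The pyruvate kinase gene *Pkm*, named here after its value was seen, rose by 1.39 ± 0.07 (SE, limma adjusted p = 1.16e-11, and at most 2.07e-08 for the other genes named). Of 4 genes that set the level of the fructose bisphosphate that activates phosphofructokinase, *Tigar*, which lowers it, rose by 1.80 ± 0.16 and *Pfkfb2*, which makes it, fell by 1.02 ± 0.09, while the other 2 did not pass (1 higher and 3 lower after 75th-percentile scaling, 1 higher and 2 lower after cyclic loess).

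At the entry and exit of the pathway, 2 of 9 glucose transporter genes were higher, 5 lower and 2 did not pass. *Slc2a1*, the widely expressed glucose carrier, rose by 2.02 ± 0.18, and *Slc2a9*, which also carries urate, fell by 0.76 ± 0.12. Of 6 genes of lactate and pyruvate handling, 2 were higher and 2 lower: the lactate exporter gene *Slc16a3* rose by 2.43 ± 0.13 and *Ldha*, which reduces pyruvate to lactate, by 1.35 ± 0.06, while the transporter gene *Slc16a7* fell by 1.5 ± 0.16. All 10 pyruvate dehydrogenase genes tested passed, against 79.5% of all genes, 7 as higher and 3 as lower (6 and 2 after cyclic loess). *Dlat*, a core subunit, changed by 2.12 ± 0.07, and the inhibitory kinases *Pdk3* and *Pdk2* by 2.18 ± 0.10 and -1.72 ± 0.11. In the NADH shuttles 6 of 8 genes were higher and 2 lower (5 and 2 after cyclic loess), led by the mitochondrial *Gpd2* at 2.54 ± 0.13 (SE throughout, limma adjusted p at most 2.22e-05 for the genes named).

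Among the side branches, 5 of 6 pentose phosphate genes were higher and none lower, with a median of 1.07, including *Pgd* of the oxidative branch (1.56 ± 0.13) and *Tkt* of the non-oxidative branch (1.19 ± 0.09). Hexosamine genes split into 3 higher and 3 lower of 7, with *Gnpnat1* at 2.52 ± 0.13 and *Gfpt2*, an isozyme of the entry enzyme, at -3.22 ± 0.10. In glycogen metabolism 5 of 9 were higher and 3 lower: the synthase *Gys1* (2.34 ± 0.16) and glycogenin *Gyg* (2.01 ± 0.13) rose, and the phosphorylases *Pygm* (-1.44 ± 0.14) and *Pygl* (-1.12 ± 0.16) fell. Of 5 gluconeogenesis genes 2 were higher and 2 lower, led by the mitochondrial *Pck2* at 2.16 ± 0.13, with 2 higher and 0 lower after cyclic loess (SE throughout, limma adjusted p at most 9.24e-06 for the genes named).

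Known regulators also moved both ways, as did all genes tested (34.8% higher and 44.7% lower). Of 12 regulators of glycolytic genes tested, 5 were higher and 5 lower: *Egln3*, a HIF prolyl hydroxylase, rose by 2.46 ± 0.25 and *Hif1a* by 1.20 ± 0.13, while *Arnt*, the partner of the HIF alpha subunits, fell by 1.02 ± 0.10 and *Txnip*, which restrains glucose uptake, fell by 2.40 ± 0.14. Of 16 HIF targets outside glycolysis, 5 were higher, 6 lower and 5 did not pass, with a median of -0.05 (3 higher and 8 lower after 75th-percentile scaling). *Ero1a*, an oxidase of the endoplasmic reticulum, rose by 2.03 ± 0.08 and *Mif*, a cytokine gene, by 1.91 ± 0.08, and *Ndrg1* fell by 3.40 ± 0.10 (SE throughout, limma adjusted p at most 3.95e-07 for the genes named). Messenger levels alone do not measure HIF activity, which is set largely by protein stability.

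**Figure D5:**
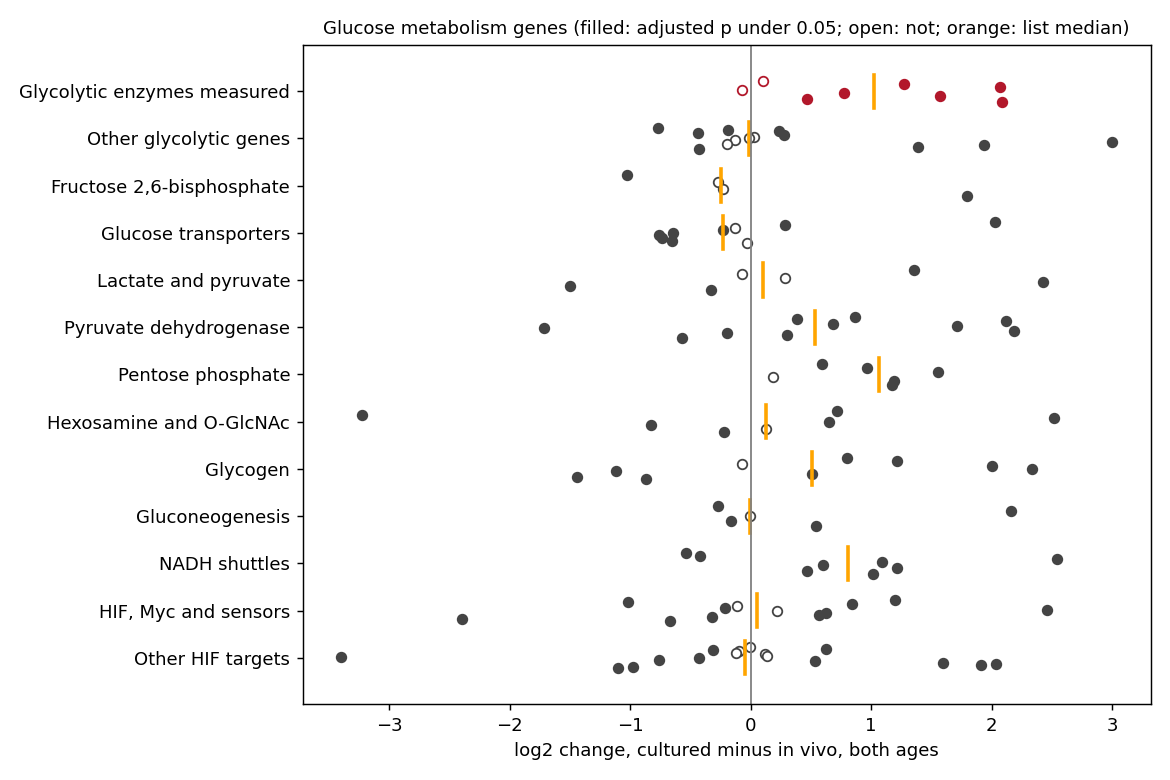
The log2 change with culture over both ages for each gene tested in the measured glycolytic enzymes (top row, red) and in 12 lists of related genes, with the list median as an orange bar (filled points, adjusted p under 0.05; open points, not). The top row has a median of 1.03 and no called gene below 0 on this scale, where *Pfkp* falls after rescaling, and most other rows hold called genes on both sides of 0.

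Between old and young mice in vivo, 1 of 105 related genes tested passed (0.952%, against 1.35% of all genes), and likewise 1 in the interaction (0.952%, against 0.587%) and 0 in culture. Of 54 cell type markers tested in vivo, 3 passed: *Csf1r* of macrophages (-1.08) and *Col1a2* of fibroblasts (-0.64) were lower in old mice and *Kcnj8* (1.06) higher. The related gene was *Ldhb*, the lactate dehydrogenase subunit of heart, which averaged 7.32 ± 0.18 in old cultured, 6.96 ± 0.25 in young cultured, 8.15 ± 0.13 in old in vivo and 6.28 ± 0.25 in young in vivo cells (SD, n = 4 each). Its age difference was 1.87 ± 0.13 in vivo (SE, limma adjusted p = 7.06e-05) and differed between the conditions by -1.51 ± 0.20 (limma adjusted p = 0.00088).

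The genes whose centred values over the 16 arrays lay nearest to each enzyme gene, by root mean square log2 difference, were *Cops7b* for *Pgk1* (0.11) and *Pfkl* (0.13), *Esd* for *Tpi1* (0.11), *Abtb2* for *Hk2* (0.21), *Hnrnpa1* for *Aldoa* (0.08), *Ybx1* for *Gapdh* (0.06), *Lmna* for *Hk1* (0.12) and *1700018A04Rik* for *Pfkp* (0.08). *Pfkl* and *Pgk1*, on different chromosomes, were the closest pair among the enzyme genes, at 0.14, while the pair farthest apart was *Pfkp* and *Pgk1*, at 1.09. These distances are dominated by the size of the culture change and describe these arrays only.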

How the data were processed

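RNA of 16 dermal fibroblast samples was measured on Affymetrix mouse arrays. The authors deposited 1 log2 value per probe set (45141 probe sets), made with RMA and the package affy, per the submitters' processing notes. Versions, log base and the set of arrays normalised jointly are not stated there, and base 2 was inferred from values between 2.7 and 13.08. RMA equalises arrays, so changes are relative to the other genes and shrink near background.

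Of the probe sets, 28898 had 1 gene symbol in the platform annotation, 551 had several and 15692 were not listed. Each of 17097 genes was taken by its highest-mean probe set, and 14819 genes with at least 4 arrays above 3.87 (the 25th percentile) were tested with limma 3.58.1 in R 4.3.3, with Benjamini-Hochberg adjustment over all of them and a threshold of 0.05. Culture contrasts and the interaction used all 16 arrays with 4 group means, and age contrasts used the 8 arrays of a condition, because in vivo arrays spread more. No label links the cultured and in vivo samples of a mouse, or arrays to a collection day. The fits were tested on simulated data.

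The enzyme genes and all lists of related genes and markers were chosen with earlier results of these data known. Named were all enzyme genes, at most 2 genes per list and direction among those called for culture (at most 4 in the age contrasts and the interaction), and the nearest gene of each enzyme gene. Alternatives were other scalings (75th percentile, cyclic loess), filters, probe set choices, limma settings, other arrays in the fit and leaving out each array. Fits within, or blocked by, title-number pairs were added after seeing the data. Precision is limited by having 4 arrays a group. No 2 arrays were identical (0 pairs).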

Additional observations from a re-analysis of the deposited data

Results flagged for a closer look

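In 2 of 32 groups of 4 arrays, 1 array lay far from the other 3, where chance flags about 1 group in 20. *Pfkl* read 8.21 in young in vivo replicate 1, with a gap to its neighbour of 0.943 of the group's range, and *Tpi1* read 8.44 in young in vivo replicate 3, with a gap of 0.833 of the range. Without young in vivo replicate 3, the *Tpi1* difference between old and young in vivo cells was 0.28, against 0.39 with all 8 in vivo arrays, and neither passed after adjustment.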

How the results depend on the processing

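Of 28 alternatives, 16 of which left out 1 array each, 24 to 27 applied to the culture contrasts and the interaction and 18 to each age contrast. The 6 enzyme genes higher in culture kept their direction and stayed past the threshold under all 26 that applied to both ages together, over 0.71 to 1.84 for *Hk2*, 1.19 to 2.37 for *Pfkl*, 0.48 to 0.88 for *Aldoa*, 1.27 to 2.11 for *Tpi1*, 0.21 to 0.51 for *Gapdh* and 1.78 to 2.30 for *Pgk1*, and 6 to 8 genes were called. *Pfkp* in young mice turned from 0.03 to -0.32 with cyclic loess, -0.38 with the mean over probe sets and -0.79 with the second-brightest set, each past the threshold, and over both ages *Hk1* rose by 0.34 and 0.59 in the last pair of settings. The cause was not tested. No enzyme gene passed between ages or in the interaction under any alternative run. The 75th-percentile scaling moved the median of all genes from -0.11 to -0.31, and the split of culture calls from 5156 higher and 6631 lower to 4119 and 8567 (4742 and 3978 with a stricter filter). Old against young in vivo, 200 genes passed (135 higher, 65 lower), 900 with all 16 arrays in the fit, 392 with array weights, 110 with second-brightest probe sets, 94 higher and 120 lower after 75th-percentile scaling and 115 and 110 after cyclic loess. Without old in vivo replicate 1 it was 306, and without any 1 of the other 7 in vivo arrays 60 to 132. The interaction called 87 genes (29 higher, 58 lower), 185 with array weights, 55 with second-brightest sets, 52 and 41 after 75th-percentile scaling, 52 and 63 after loess, and 44 to 200 without 1 array (most without old in vivo replicate 1, fewest without young cultured replicate 4). With title-number pairs as a block, 165 genes passed in vivo and 0 in culture. No paired analysis was possible because no label links samples of the same mouse or day, and replicate numbers here follow accession order. Other arrays could not be added for both ages together or for the interaction, which already use all groups.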
